A study of Mus musculus with 32 samples.

Results

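Loss of the circadian transcription factor Bmal1 was examined here in rRNA-depleted lung RNA, called RiboZero in the labels. The comparison takes all 6 RiboZero libraries of Bmal1 knockout (KO) mice and all 6 of wild type (WT) mice, 12 of the 32 libraries of the series, chosen by preparation and genotype alone. The mice were in-house bred C57b/6 adults of 8 to 18 weeks, all labelled female. The 12 libraries came from whole lung, each from 200 ng of RNA and 11 PCR cycles, with ribosomal RNA removed by pull-down rather than by selection of polyadenylated RNA. The labels do not give the knockout allele, any driver line or the clock time at which lungs were taken, so the groups are known only by genotype.

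BMAL1, the product of Arntl, pairs with CLOCK or NPAS2 and binds E-box sequences to activate the period and cryptochrome genes, whose products then repress that pair. The REV-ERB receptors, also switched on through E-boxes, repress Arntl and Npas2 at ROR elements, where the ROR receptors activate. In lung the clock is known in airway epithelium, fibroblasts and macrophages, and rRNA-depleted RNA adds to this view transcripts without a poly(A) tail and nuclear RNA that still holds introns.

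Total estimated counts ran from 11638590 to 25801192 per library, and 15645 to 17425 rows had at least 10 counts. Lung markers were abundant in every library: Sftpa1, a surfactant protein of alveolar type 2 cells, had at least 1498 CPM (counts scaled by library total, on edgeR's TMM scale, as in all that follows), and Scgb1a1, the club cell secretoglobin, at least 8341. The summed liver markers reached at most 9.79 CPM and the skeletal muscle markers at most 10.1. The library labelled KO6 went against its sex label. In it Xist, the X-inactivation RNA, was at 0.102 CPM and the Y-linked Ddx3y at 112, whereas the other 11 libraries had 1068 to 1417 CPM of Xist and 0 counts of Ddx3y. List counts are therefore also given without KO6 where they differ.

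Arntl itself was lower in KO but not absent. The WT libraries held 38.3, 34.1, 40.7, 42.6, 42.3 and 35.2 CPM, and the KO libraries 23.6, 23.3, 22.5, 22.2, 21.01 and 19.1. The 2 genotypes did not overlap, and KO retained 56.4% of the WT level (log2 fold change -0.83 ± 0.07 SE, n = 6 per genotype, edgeR adjusted p = 2.459e-05). Which exons those reads covered cannot be read from gene totals. A row carrying only the transcript identifier ENSMUST00000093344, for which neither a symbol nor a GENCODE M21 entry was found, separated the genotypes fully. It held 788 to 1901 counts in the WT libraries and 0 in every KO library, so KO was at least 440-fold lower against a floor of 3 counts per library. In the PolyA libraries of the same mice the row had 2013 to 5502 counts in WT and 0 in KO.

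Across the table, 579 of 16710 rows tested passed an adjusted p under 0.05 in edgeR (3.46%). Of these, 307 were higher in KO (1.84%) and 272 lower (1.63%), with a median absolute log2 fold change of 0.50 among the called rows, and 113 changed by at least 1 on the log2 scale. The median log2 fold change of all rows was -1.2e-05. The libraries of the 2 genotypes did not overlap for 382 of the called rows, beside 2.89% of all rows tested. Without KO6 the counts were 291 higher and 309 lower, without WT5 they were 200 and 180, and without KO2 they were 197 and 198. An unadjusted p under 0.05 was reached by 16.4% of rows, and DESeq2 called 976 rows (5.84%), 489 higher and 487 lower. Counts of these kinds for a list or class are to be read against those shares. The lists were chosen with earlier results of these data known, so an excess of calls in a list is not an independent result.

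Clock genes changed in both directions. All 36 members of the clock lists were measured and tested, and 6 were higher and 3 lower in KO, beside the 3.46% called over all rows. The REV-ERB genes fell, while Npas2, Cry1 and Per2 were among those that rose. Without KO6 the number called was also 9.

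Nr1d1, which encodes REV-ERB alpha, stood at 9.23 CPM in the lowest WT library, 12.97 at the median and 29.7 in the highest. In KO the values were 0.383, 0.524 and 0.633. Every KO library lay far below every WT library, and the fall was 29.0-fold (log2 -4.86 ± 0.32 SE, edgeR adjusted p = 3.331e-06). Nr1d2, encoding REV-ERB beta, ran from 27.0 through a median of 33.9 to 59.7 CPM in WT and from 3.06 through 3.34 to 3.53 in KO. The KO values were tight and far below WT, a 10.9-fold fall (log2 -3.44 ± 0.19 SE, edgeR adjusted p = 7.886e-07). For both genes the highest WT library was WT2, and in both the KO libraries spread less than the WT libraries did.

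Npas2, Cry1 and Per2 were higher in KO. Npas2, the CLOCK paralogue that can partner BMAL1, had a lowest, median and highest CPM of 14.4, 21.5 and 23.8 in WT and of 62.2, 67.4 and 73.7 in KO. Cry1, a core repressor, had 19.6, 23.5 and 24.1 in WT and 58.5, 63.9 and 77.8 in KO. Neither gene had a KO library within the WT range, and their log2 fold changes were 1.71 ± 0.10 SE for Npas2 and 1.53 ± 0.08 for Cry1. Per2, the period repressor, had 30.7, 60.4 and 71.8 CPM in WT and 98.5, 142.1 and 175.1 in KO. Its rise of 1.28 ± 0.18 SE (edgeR adjusted p = 0.001522) was also without overlap, although WT1 lay well below the other WT libraries.

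Smaller differences were also seen on the clock lists. Tef, a PAR bZIP activator that acts at D-boxes, rose by 0.35 ± 0.07 SE (edgeR adjusted p = 0.02061, and up to 0.053 without KO2 or WT4). Clock, the usual partner of BMAL1, had a log2 difference of 0.11 ± 0.06 and was not called. Among the repressors, Per1 stood at -0.25 ± 0.19, Per3 at -0.48 ± 0.14 and Cry2 at 0.43 ± 0.12, with edgeR adjusted p of 0.56, 0.082 and 0.065. Dbp, another PAR bZIP gene, was at 0.43 ± 0.30 and was not called at a level of at most 3.80 CPM. The E-box repressor list had 0 of 3 members called in edgeR, with 2 at an unadjusted p under 0.05 and 1 called by DESeq2. Bhlhe41 came closest there at -0.39 ± 0.10 (edgeR adjusted p = 0.0504). The 6 clock output genes had 0 calls in edgeR, 2 at an unadjusted p under 0.05 and 0 in DESeq2.

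**Figure D1:**
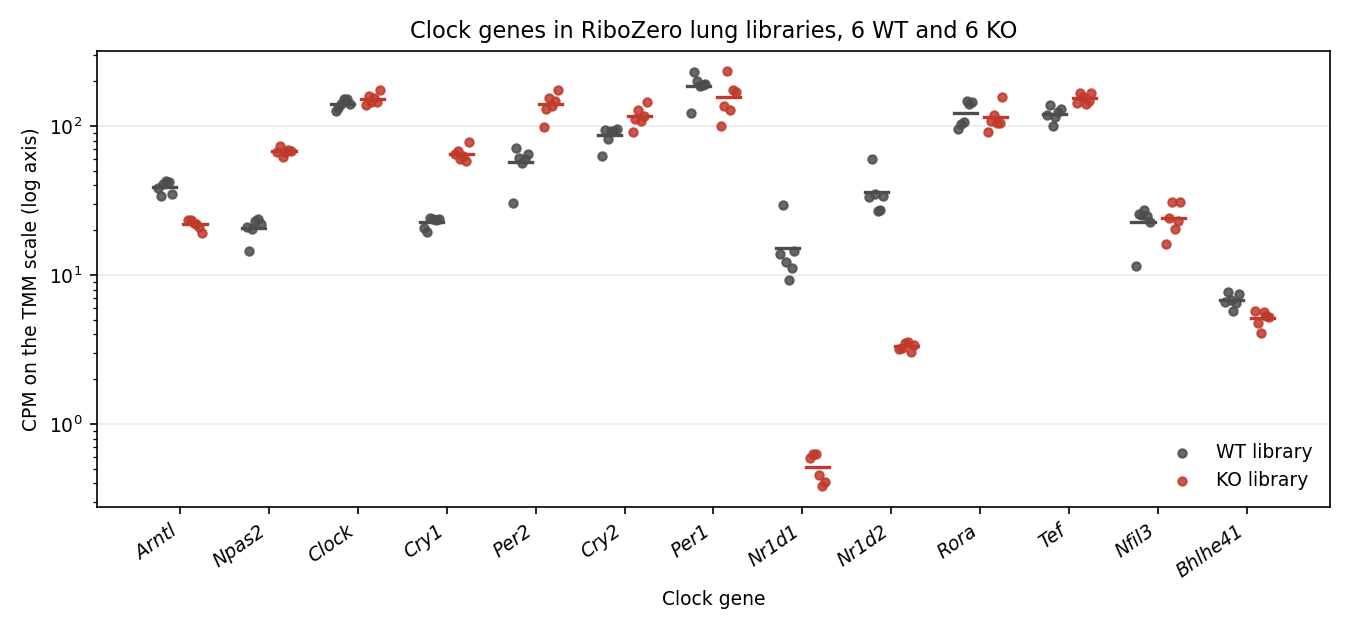
CPM of 13 clock genes in each RiboZero library on a log axis, with points for single libraries (WT grey, KO red) and a bar at each group mean. Nr1d1 and Nr1d2 lie lower in all 6 KO libraries and Npas2, Cry1 and Per2 higher in all 6, while Clock, Per1, Rora and Nfil3 overlap.

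Because these genes moved in opposite directions, the 250 bases before the start of 5 of them are shown, from RefSeq on GRCm38.p6, 5′ to 3′ on the strand of the gene. Capitals mark an E-box (CACGTG, read on both strands) or a ROR element core (AGGTCA, both strands). They are the 2 clock genes that fell most and 3 that rose.
Nr1d1, chr11:98775378-98775627, minus strand: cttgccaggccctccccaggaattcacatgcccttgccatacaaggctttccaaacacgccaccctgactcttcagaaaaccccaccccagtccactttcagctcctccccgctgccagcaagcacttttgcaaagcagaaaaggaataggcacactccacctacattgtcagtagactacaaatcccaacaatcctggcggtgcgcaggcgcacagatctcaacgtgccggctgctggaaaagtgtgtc
Nr1d2, chr14:18239107-18239356, minus strand: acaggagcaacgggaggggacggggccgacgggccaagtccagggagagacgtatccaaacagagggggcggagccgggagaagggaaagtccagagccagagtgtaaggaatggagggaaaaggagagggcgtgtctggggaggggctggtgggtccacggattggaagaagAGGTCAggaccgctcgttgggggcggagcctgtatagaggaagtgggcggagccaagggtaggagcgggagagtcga
Npas2, chr1:39194022-39194271, plus strand: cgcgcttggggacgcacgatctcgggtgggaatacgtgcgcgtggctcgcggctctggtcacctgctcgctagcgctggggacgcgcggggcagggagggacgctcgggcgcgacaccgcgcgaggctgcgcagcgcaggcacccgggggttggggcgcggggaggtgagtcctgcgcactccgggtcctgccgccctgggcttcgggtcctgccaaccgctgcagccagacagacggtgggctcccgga
Cry1, chr10:85185055-85185304, minus strand: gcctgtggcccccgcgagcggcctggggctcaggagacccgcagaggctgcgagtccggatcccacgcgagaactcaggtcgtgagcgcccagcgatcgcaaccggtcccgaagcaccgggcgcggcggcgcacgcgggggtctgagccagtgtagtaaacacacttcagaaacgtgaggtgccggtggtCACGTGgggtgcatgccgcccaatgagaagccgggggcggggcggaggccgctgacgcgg
Tef, chr15:81802423-81802672, plus strand: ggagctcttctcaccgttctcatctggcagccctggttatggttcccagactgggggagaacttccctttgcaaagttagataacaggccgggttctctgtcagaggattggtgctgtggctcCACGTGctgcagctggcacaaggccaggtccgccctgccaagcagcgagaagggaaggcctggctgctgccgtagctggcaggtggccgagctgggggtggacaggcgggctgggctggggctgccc

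The Cry1 window holds an E-box whose first base lies 60 bases before the start, and the Tef window one at 127 (a second Tef window, not shown, has one at 138). In the Nr1d2 window a ROR element core begins 77 bases before the start. Neither motif occurs in the Nr1d1 window, which belongs to a gene that fell, or in the Npas2 window, which belongs to one that rose; this says only that these letters are absent there. Over windows that also include the 50 bases after the start, the E-box was found in 10.0% of 220 genes called higher and in 8.78% of 205 called lower, beside 11.1% of the 11633 tested genes with a window and 7.15% of all 32851 windows. The ROR element core was found in 16.4% and 14.6% of these called genes, beside 15.0% of tested genes and 16.3% of all windows. The D-box (TTATGNAA, both strands) was found in 3.64% and 5.85%, beside 2.57% and 3.38%. Per2 had no window in the table.

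Outside the clock, the highest rises among genes with a symbol, no overlap and an average log2 CPM of at least 0 were those of Crabp1 and Snx31. Crabp1, a retinoic acid binding protein, went from 0.188, 0.331 and 0.491 CPM (lowest, median, highest) in WT to 2.25, 4.14 and 5.70 in KO. Snx31, a sorting nexin, went from 0.479, 0.690 and 0.981 to 3.67, 6.13 and 8.37. They rose by 3.55 ± 0.26 SE and 3.16 ± 0.21 on the log2 scale, and the choice itself required no overlap. Nnat, the imprinted neuronatin gene, had the lowest adjusted p of the table: 5.002, 5.30 and 6.75 CPM in WT and 28.9, 30.2 and 31.8 in KO (log2 2.45 ± 0.07 SE, edgeR adjusted p = 6.938e-10). Its KO libraries differed among themselves by less than 3 CPM.

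Several other high calls encode secreted or signalling proteins. Retnla, the resistin-like alpha protein known from airway epithelium and alternatively activated macrophages, had 13.8, 25.6 and 29.8 CPM in WT and 55.6, 102.9 and 261.0 in KO, a log2 rise of 2.48 ± 0.38 SE. Cxcl5, a neutrophil-attracting chemokine, had 3.05, 6.88 and 12.95 in WT and 14.6, 26.3 and 98.2 in KO. In both genes the KO libraries spread widely, and the choice itself required that none fell into the WT range. Agt, which encodes angiotensinogen, rose by 2.24 ± 0.37, Fst, the activin antagonist follistatin, by 1.78 ± 0.16, and Ntrk2, the BDNF receptor, by 1.78 ± 0.20. Sv2c, a synaptic vesicle protein, rose by 2.69 ± 0.22 and Calml3, a calmodulin-like protein, by 2.17 ± 0.37. Gm16072 rose by 1.77 ± 0.16, but 30.4% of its 31-base words occur in other genes, so its count is uncertain.

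After the REV-ERB genes, Slc13a4 had the deepest fall among genes chosen in the same way. Slc13a4, a sulfate transporter, had 3.10, 3.77 and 4.31 CPM in WT and 0.226, 0.549 and 0.682 in KO, a 7.44-fold fall (log2 -2.89 ± 0.21 SE, edgeR adjusted p = 7.796e-06). Ryr3, a ryanodine receptor calcium channel, had 3.93, 5.07 and 8.05 in WT and 0.805, 1.50 and 2.08 in KO. Absence of overlap between genotypes was a condition of the choice for both genes. Ces1g, a carboxylesterase, fell by 1.55 ± 0.25 SE, Kcnf1, a modulatory potassium channel subunit, by 1.86 ± 0.31, and Cd163l1, a scavenger receptor gene, by 1.85 ± 0.31. Fetub, a fetuin, fell by 1.43 ± 0.22 and Cst8, a cystatin, by 1.43 ± 0.20, and Rgs16, a regulator of G-protein signalling, by 1.403 ± 0.267. The Rgs16 call was lost after counts were thinned to the smallest library total (edgeR adjusted p = 0.055). Cyp2a5 fell by 2.24 ± 0.38 and Rps13 by 2.58 ± 0.45, yet 54.6% and 22.5% of their 31-base words occur in other genes. The Rps13 row was also low, with a mean of 1.85 CPM in WT and 0.291 in KO. Ribosomal protein rows as a class had a median log2 CPM of 7.11.

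Extracellular matrix genes changed in both directions. Of 20 elastic fibre genes tested, 2 rose and 6 fell, with a median of -0.18, beside 3.46% called over all rows. Mfap4, a microfibril-associated protein, had 134.8, 158.7 and 224.8 CPM in WT and 307.7, 400.2 and 507.2 in KO, a log2 rise of 1.28 ± 0.14 SE (edgeR adjusted p = 0.0002691). Fbln1, fibulin-1, had 59.7, 68.4 and 73.6 in WT and 25.5, 30.7 and 39.8 in KO. It fell by 1.07 ± 0.10 with no overlap, and Ltbp4, which tethers latent TGF-beta to elastic fibres, fell by 0.79 ± 0.08. Fbn2, the developmental fibrillin, rose by 1.05 ± 0.21, with overlapping libraries. The Fbn2 call was lost after counts were thinned to the smallest library total (edgeR adjusted p = 0.064). Without KO6, 2 rose and 4 fell.

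Of 20 collagen genes tested, 3 rose and 3 fell. Col12a1, Col14a1 and Col15a1, fibril-associated or multiplexin collagens, fell by 1.39 ± 0.24 SE, 0.59 ± 0.09 and 0.54 ± 0.08. Col12a1 had 56.6 to 68.6 CPM in WT and 15.0 to 21 in KO1 to KO5, but 49.5 in KO6. Col4a5, a basement membrane chain, rose by 0.43 ± 0.10 (edgeR adjusted p = 0.03096), with KO1 at 154.4 CPM below all WT libraries. Its partner chains Col4a3 and Col4a4, named after their values were seen, rose by 0.42 ± 0.09 and 0.42 ± 0.08. Without KO6, 2 collagen genes rose and 3 fell, and Col4a5 then had an edgeR adjusted p of 0.057. Its call was lost when any 1 library other than KO1 was left out, with an edgeR adjusted p of at most 0.077.

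Metabolic lists held few calls each. Of 27 PPAR target and fuel-switch genes, 3 rose and 0 fell. Acot1, an acyl-CoA thioesterase, rose by 0.59 ± 0.10 SE and Lpl, lipoprotein lipase, by 0.56 ± 0.10 on the log2 scale. For Acot1, 22.7% of the 31-base words are shared with other genes. The list median was 0.10. Of 15 fatty acid synthesis genes 0 were called in edgeR, 6 had an unadjusted p under 0.05 and 4 were called by DESeq2. For 22 cholesterol synthesis genes these counts were 0, 4 and 2, and for 15 NAD salvage and sirtuin genes 0, 0 and 0.

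Of 21 xenobiotic genes tested, 1 rose and 5 fell, with a list median of 0.02. Fmo2, the pulmonary flavin monooxygenase, fell by 0.44 ± 0.09 SE (edgeR adjusted p = 0.053 without WT5), and Por, the reductase that supplies electrons to cytochromes P450, fell by 0.40 ± 0.07. Por had 190.5, 214.8 and 270.3 CPM in WT and 158.8, 166.8 and 177.4 in KO, so the groups did not overlap. Cyp2s1, an epithelial P450, rose by 0.48 ± 0.10, a call lost without KO2, WT4, WT5 or WT6 (edgeR adjusted p up to 0.055). Of 22 NRF2 antioxidant genes, 2 rose and 1 fell, and without KO6 1 rose and 1 fell. Gsta3, a glutathione transferase, fell from 79.5, 88.8 and 102.9 CPM to 33.5, 49.0 and 55.8 (log2 -0.95 ± 0.12, edgeR adjusted p = 0.0005481). Gclc, the catalytic subunit for glutathione synthesis, rose by 0.39 ± 0.08, and Gstm2 by 0.20 ± 0.05, a call lost without any 1 library other than KO3 or WT2 (edgeR adjusted p up to 0.080 over these fits and the unfiltered one).

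Chemokine ligands were called in 5 of 23 tested, 2 higher and 3 lower. Beside Cxcl5, Cxcl15, the lung epithelial chemokine lungkine, rose by 0.57 ± 0.08 SE, from 654.6, 724.7 and 801.4 CPM to 942.6, 1067 and 1211. Cxcl14 fell by 1.14 ± 0.15 (edgeR adjusted p = 0.0007574) and had 51.0, 59.7 and 67.6 CPM in WT and 17.4, 26.2 and 36.2 in KO. The Cxcl14 and Cxcl15 libraries did not overlap. Cxcl16, the ligand of CXCR6, fell by 0.31 ± 0.07, a call lost without KO2, KO4, WT4 or WT6 (edgeR adjusted p up to 0.069). Without KO6, 2 ligands rose and 2 fell.

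Stress and growth lists had few or no calls. Immediate early genes had 0 of 19 called in edgeR, 8 at an unadjusted p under 0.05 and 1 in DESeq2, while 18 of the 19 log2 differences were negative and their median was -0.64. Glucocorticoid receptor targets had 0 of 19 in edgeR, 6 unadjusted and 2 in DESeq2, with a median of -0.22, and without KO6 3 of them were called lower. Dusp1, a phosphatase on that list, stood at -0.64 ± 0.27 SE (edgeR adjusted p = 0.26). Proliferation genes had 0 of 26 in edgeR, 7 unadjusted and 2 in DESeq2, with a median of -0.27, and 1 called lower without KO6. For 18 heat shock and cold-inducible genes the counts were 0, 2 and 0 (1 called lower without KO6), for 22 unfolded protein response genes 0, 0 and 0, and for 24 MHC and antigen presentation genes 0, 4 and 1. Of 24 interferon-stimulated genes only Ifi27l2a was called, lower by 0.65 ± 0.13. Scnn1a, the alpha subunit of the epithelial sodium channel, rose by 0.27 ± 0.06 as the only call among 19 fluid and ion transport genes, lost without WT4 or WT6 (edgeR adjusted p up to 0.057).

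**Figure D2:**
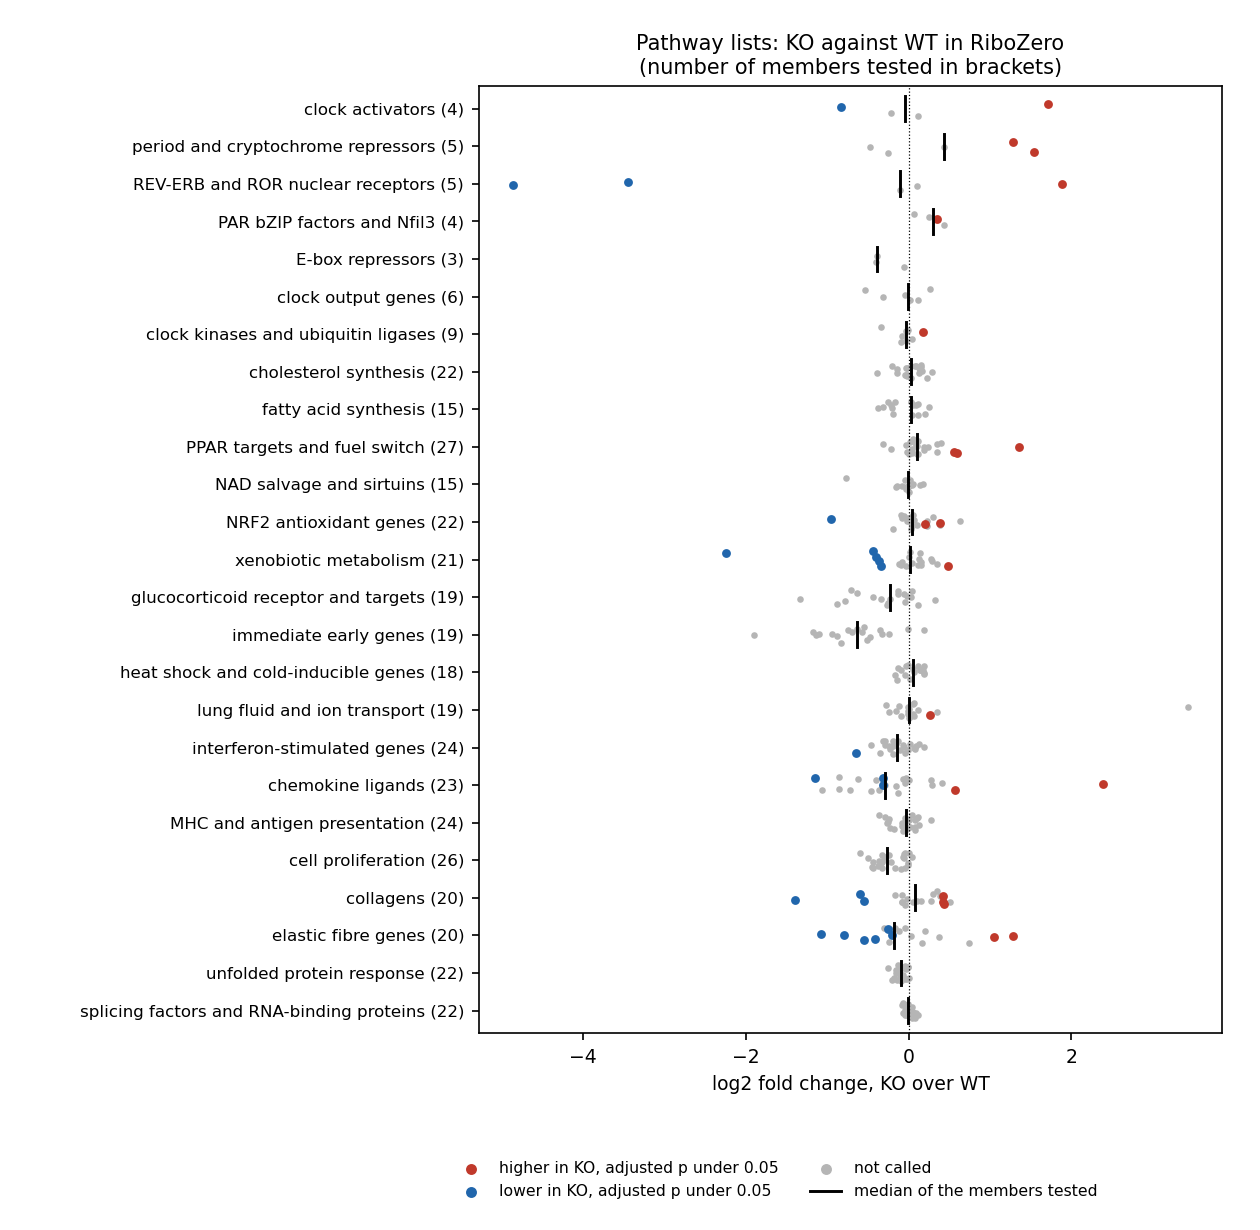
Log2 fold change of KO over WT for each tested member of the pathway lists, with called members in red (higher) or blue (lower), other members in grey and the list median as a black line. The calls with the largest size are Nr1d1 and Nr1d2, and immediate early genes lie mostly below 0 without a call.

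Cell type markers were read next; in bulk lung, fewer cells of a type and less RNA per cell cannot be told apart. Fibroblast markers held the most calls, with 1 higher and 4 lower of 15, beside 3.46% over all rows. Pi16, a marker of adventitial fibroblasts, had 16.04, 19.2 and 21.8 CPM in WT and 6.44, 8.88 and 12.9 in KO, without overlap (log2 -1.07 ± 0.14 SE, edgeR adjusted p = 0.001186). Dpt, the matrix protein dermatopontin, fell by 0.46 ± 0.08 and Gsn, the actin-severing gelsolin, by 0.32 ± 0.07. The summed CPM of all fibroblast markers ran from 5463 to 6193 in WT and from 5138 to 6255 in KO, so the sum overlapped. The part of cell numbers in the matrix results was not tested.

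Markers of interstitial macrophages and monocytes fell in 3 of 14, and 0 rose. Vcan, the proteoglycan versican, fell by 0.73 ± 0.13 SE, C1qa, a complement C1q chain, by 0.59 ± 0.14, and Csf1r, the receptor for macrophage colony-stimulating factor, by 0.25 ± 0.05 (edgeR adjusted p up to 0.064 without KO2 or WT5). Vcan had 19.96, 23.1 and 28.3 CPM in WT and 11.1, 13.4 and 19.1 in KO, whereas C1qa and Csf1r overlapped between genotypes, and the C1qa call was lost after thinning and without any 1 library other than KO1, KO3 or WT2 (edgeR adjusted p up to 0.079). Without KO6, 2 of the 14 were called. The summed CPM of the 14 markers overlapped, at 1698 to 2045 in WT and 1632 to 2268 in KO. The alveolar macrophage list had 0 of 14 called in edgeR, 2 at an unadjusted p under 0.05 and 0 in DESeq2. Of 13 neutrophil markers 1 was called, Mmp9, a gelatinase, at 0.86 ± 0.20 (lost without KO4, KO5 or any 1 of WT2 to WT6, edgeR adjusted p up to 0.081), and 4 were called higher without KO6.

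Epithelial lists held few calls. Among 11 alveolar type 2 markers, Sftpa1 fell by 0.49 ± 0.09 SE and Cxcl15 rose. Sftpa1 had 2154, 2531 and 2900 CPM in WT and 1498, 1748 and 2116 in KO, without overlap. Without KO6, 1 type 2 marker rose and 3 fell. Ager, the type 1 cell receptor for advanced glycation end products, rose by 0.23 ± 0.06 as the single call of 12 type 1 markers (edgeR adjusted p = 0.044), and 0 were called without KO6, where its adjusted p was 0.074. The Ager call was lost with no filter and without any 1 library other than KO1 or WT1 (edgeR adjusted p up to 0.11). All 13 ciliated markers had a positive log2 difference, with a median of 0.31, but 0 were called in edgeR, 7 had an unadjusted p under 0.05 and 5 were called by DESeq2. Club and secretory markers had 0 of 12 in edgeR, 5 unadjusted and 1 in DESeq2, with a median of 0.43. Goblet markers had 0 of 5, 2 and 1. Clca1, a goblet cell product, ranged from 0.218 to 38.2 CPM in WT and from 0.715 to 294.5 in KO and was not called.

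Endothelial, muscle and blood lists were mostly without calls. Lyve1, a lymphatic hyaluronan receptor, fell by 0.53 ± 0.11 SE (edgeR adjusted p up to 0.052 without KO2 or KO4), and Ccl21a, a lymphatic chemokine, by 0.31 ± 0.08, among 13 arterial, venous and lymphatic markers. Of the 13 differences, 5 were positive and 8 negative, with a median of -0.07. The summed CPM of the list overlapped, at 880.9 to 1089 in WT and 849.8 to 1044 in KO. The Ccl21a count is uncertain, as 80.6% of its 31-base words occur in other genes, its call was lost with no filter, after thinning and without any 1 library other than KO1 (edgeR adjusted p up to 0.11), and without KO6 1 of the 13 markers was called. Capillary endothelium had 0 of 15 in edgeR, 5 unadjusted and 0 in DESeq2, and smooth muscle and pericytes 0 of 15, 2 and 1. Platelet markers had 0 of 8, 3 and 2, although all 8 differences were positive with a median of 0.82. T and NK cells had 0 of 18, 2 and 0, B and plasma cells 0 of 13, 0 and 0, dendritic cells 0 of 11, 3 and 1, and erythroid markers 0 of 8, 0 and 0. Pulmonary vein cardiomyocyte markers had 0 of 14, 0 and 0, and Myh6, the atrial myosin chain, was at 0 CPM in KO3 against 27.6 to 227.0 in the other libraries. Upk1b, a uroplakin, rose by 0.68 ± 0.12 among 8 mesothelial markers, but 6 of the 8 had negative differences and their median was -0.23. Syp, synaptophysin, fell by 0.50 ± 0.11 among 2 neuroendocrine markers tested. The Syp call was lost without KO4 or WT5 and with no filter (edgeR adjusted p up to 0.057).

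**Figure D3:**
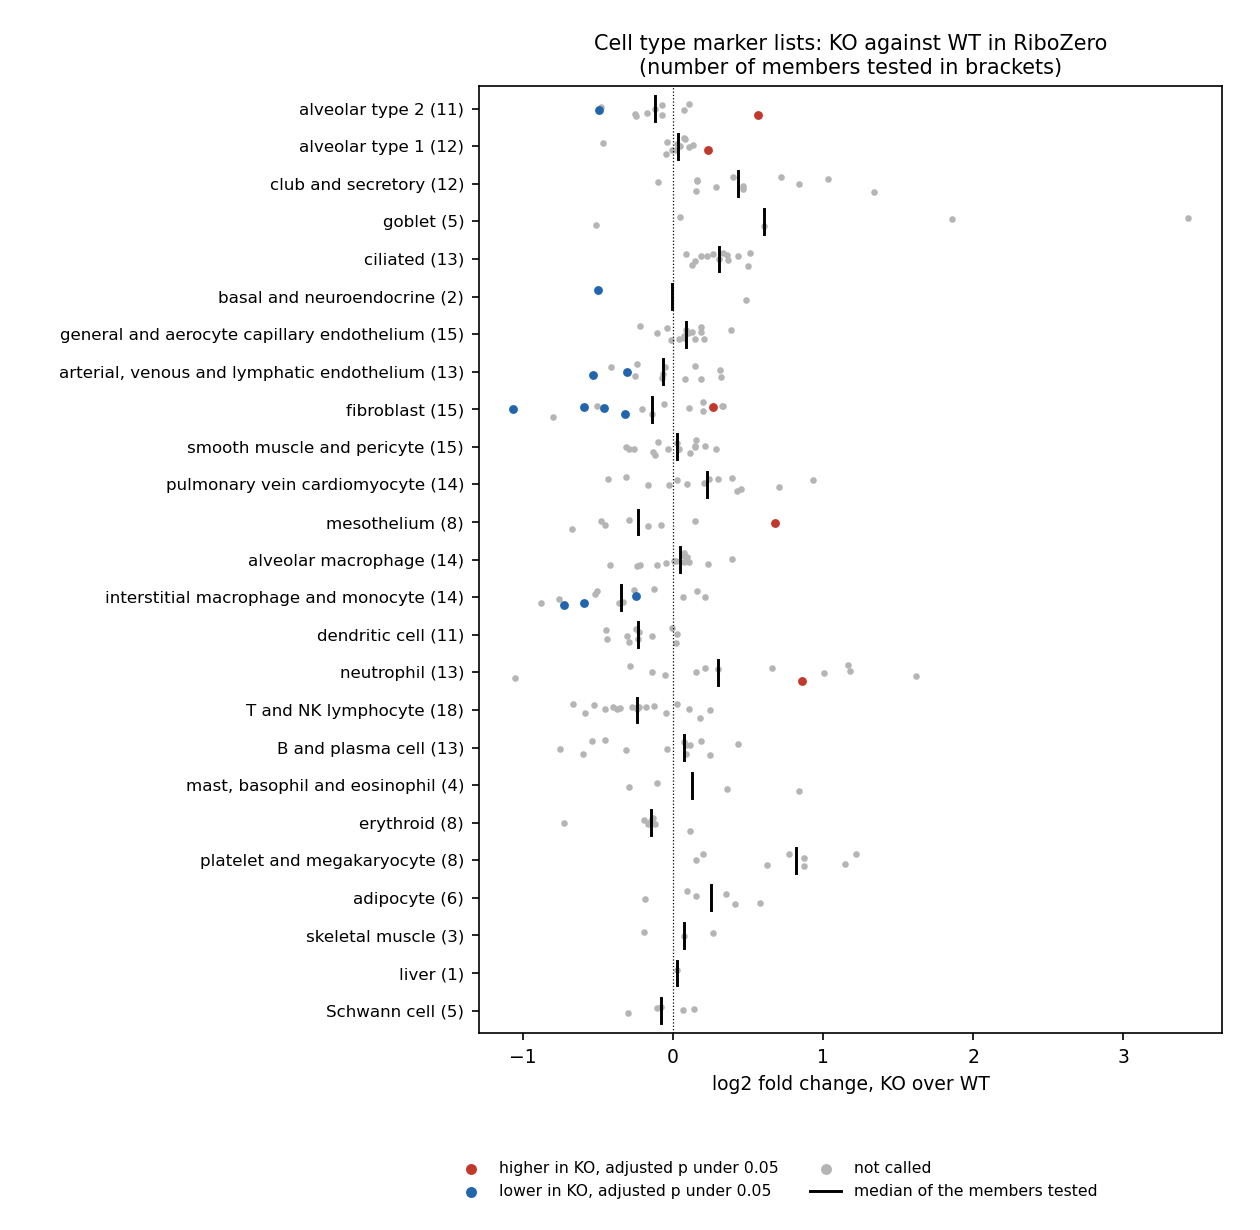
Log2 fold change of KO over WT for each tested cell type marker, coloured as called higher (red), called lower (blue) or not called (grey), with the list median as a black line. Fibroblast markers and interstitial macrophage and monocyte markers hold most of the lower calls, and ciliated and platelet markers lie above 0 without a call.

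The small noncoding, histone and mitochondrially encoded RNA classes, of which some lack a poly(A) tail, showed few differences. No call was made by edgeR among 37 snRNA, 64 snoRNA, 10 scaRNA, 10 Pol III and RNase RNA and 14 other small noncoding rows, with 0 at an unadjusted p under 0.05 and 0 in DESeq2 in each class. Replication-dependent histone genes, whose mRNAs end in a stem-loop, had 0 of 56 in edgeR, 2 unadjusted and 1 in DESeq2. The 15 mitochondrially encoded rows had 0, 2 and 0. Precision differed between classes: the median SE of a log2 fold change was 0.28 for snRNA, 0.22 for snoRNA, 0.26 for histone and 0.19 for long noncoding rows, against 0.079 for other protein-coding rows. In these 4 classes a small difference was therefore less detectable than among other protein-coding rows.

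The RNAs with high CPM among Pol III and RNase RNAs and nuclear long noncoding RNAs were not called. Rn7sk, the Pol III RNA that holds the elongation factor P-TEFb inactive, had 22310 to 25890 CPM in WT and 21940 to 24460 in KO (log2 -0.02 ± 0.05 SE). Rmrp, the RNA of RNase MRP, stood at -0.06 ± 0.10 and Rpph1, the RNA of RNase P, at -0.03 ± 0.08. Rn7s2 and Rn7s1, near-identical 7SL RNA genes of the signal recognition particle, had differences of 0.06 ± 0.08 each, and their counts cannot be told apart. Malat1, the nuclear speckle RNA, had 26460, 28440 and 28860 CPM in WT and 25610, 27370 and 28820 in KO, and Neat1, the paraspeckle scaffold, 1923, 2647 and 2783 in WT and 1714, 2251 and 3468 in KO. Neither was called, at -0.03 ± 0.05 and -0.08 ± 0.15. The 17 tested nuclear and imprinted long noncoding RNAs had 0 calls in edgeR, 4 at an unadjusted p under 0.05 and 0 in DESeq2. Of these, Meg3 (0.43 ± 0.14), Rian (0.54 ± 0.18) and Mirg (0.55 ± 0.24), which lie together on chromosome 12 and were singled out after their values were seen, all had positive differences. Among the 17, however, 11 differences were negative. The largest was that of Miat, at -1.03 ± 0.31 (edgeR adjusted p = 0.096) with a WT mean of 0.906 CPM. The 12 snoRNA host genes had 0, 2 and 0.

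Of 750 long noncoding rows, 6 were called higher and 0 lower (0.80%), with 68 at an unadjusted p under 0.05 and 12 called by DESeq2. Pseudogene rows, which can share reads with their parent genes, had 5 higher and 3 lower of 332 (2.41%). Other protein-coding rows were called in 3.90% of 14273. C430049B03Rik, annotated as a processed transcript on chromosome X, had 3.33, 4.18 and 6.01 CPM in WT and 5.56, 8.39 and 9.40 in KO, overlapping through WT1 and KO6 (log2 0.87 ± 0.16 SE, edgeR adjusted p = 0.01005). Gm14964, antisense to Nrxn2, rose by 0.59 ± 0.12 and overlapped by WT1 alone, at 4.31 CPM against a lowest KO value of 4.25. Hectd2os rose by 1.14 ± 0.24, and Hectd2 on the opposite strand stood at -0.39 ± 0.10 (edgeR adjusted p = 0.056). Gm9947 rose by 0.94 ± 0.19 and its opposite gene Msc stood at 0.95 ± 0.27 (edgeR adjusted p = 0.081). Gm16201 rose by 0.86 ± 0.20 opposite Adam8, at 0.45 ± 0.16, and AU040972 by 1.12 ± 0.28 opposite Nf1, at -0.04 ± 0.06. The Gm16201 call was lost without KO2, KO5, KO6, WT1, WT3, WT4 or WT5, and the AU040972 call without any 1 library other than KO3, with edgeR adjusted p up to 0.097 and 0.10, while the other 4 kept their call whichever library was left out. The counting's use of strand is not given in the sources used here, so reads of a pair may not be separable.

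The share of all counts taken by each class did not separate the genotypes. Mitochondrially encoded RNA came closest, with 3.27% ± 0.24 in WT and 3.53% ± 0.18 in KO (SD over 6 libraries per genotype, exact two-sided permutation p = 0.0671, adjusted over 11 classes 0.738). Pol III and RNase RNA took 12.6% ± 1.01 of counts in WT and 12.9% ± 0.75 in KO, and long noncoding RNA 3.74% ± 0.18 and 3.59% ± 0.15. snRNA took 0.178% ± 0.042 and 0.179% ± 0.038. The smallest p this design allows is 0.00216.

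**Figure D4:**
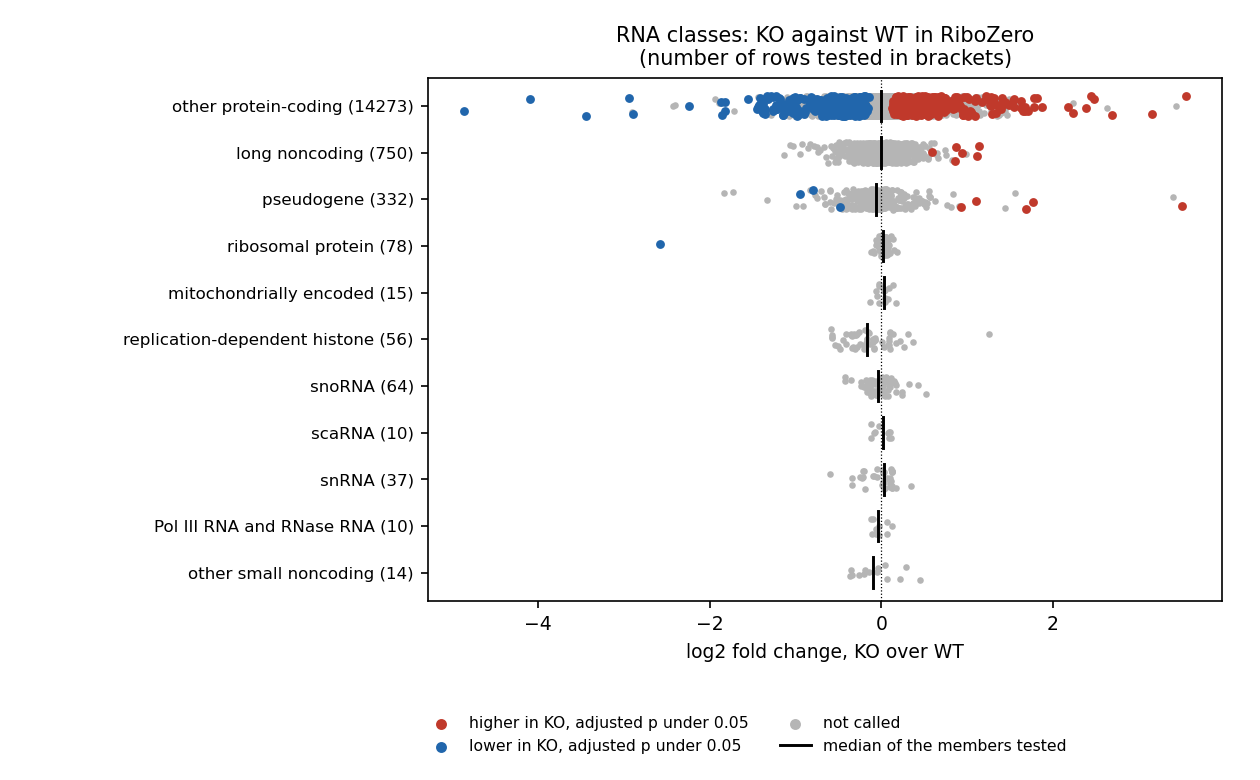
Log2 fold change of KO over WT for tested rows by RNA class, without antigen receptor segments and unmatched rows, with called rows in red (higher) or blue (lower) and the class median as a black line. Most calls lie among protein-coding rows, with 6 long noncoding rows higher, 5 pseudogene rows higher and 3 lower, and 0 calls in the snRNA, snoRNA, scaRNA, Pol III, histone and mitochondrial classes.

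Whether the knockout effect depended on the preparation was tested against the PolyA libraries of the same 12 mice. Fits without the mouse as a block treated libraries of the same mouse as independent. In these, the difference of the effects passed an adjusted p under 0.05 for 0 of 18164 rows in edgeR (331 at an unadjusted p under 0.05, 1.82%) and for 11 in DESeq2. With the mouse as a block in edgeR, it did so for 1 row (940 at an unadjusted p under 0.05, 5.18%). That last row was Arntl, whose log2 fold change was -0.83 ± 0.07 SE in RiboZero and -0.27 ± 0.06 in PolyA. The difference was -0.57 ± 0.10 (edgeR adjusted p = 0.11) without the block and -0.57 ± 0.05 (edgeR adjusted p = 0.000474) with it. Of 574 RiboZero calls also tested in PolyA, 346 were called there too. The share of all rows called in PolyA is not given here, and the same 12 mice gave both sets of calls. This overlap is therefore not an independent replication. Npas2 stood at 1.71 in RiboZero and 1.80 in PolyA, and Cry1 at 1.53 and 1.52. The effects were less alike for Ryr3 and Col4a5. For Ryr3 the RiboZero fall of 1.82 ± 0.22 stood beside -0.49 ± 0.30 in PolyA, and for Col4a5 0.43 ± 0.10 stood beside 0.05 ± 0.08. Neither difference was called, with or without the block.

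Rows near Arntl on chromosome 7 included several calls. Within 5 Mb of the Arntl start, and leaving Arntl out, 7 of 58 rows were higher and 3 lower (17.2%), beside 2.84% on chromosome 7 beyond 10 Mb and 3.41% of the other rows, a contrast that was not tested. Rassf10, a Ras-association domain gene 0.254 Mb before Arntl, had 2.78 to 5.70 CPM in WT and a log2 rise of 0.96 ± 0.19 SE. Sox6, a transcription factor gene 2.26 Mb beyond Arntl, rose by 0.50 ± 0.08, and both were named after their values were seen. Lyve1 and Rps13, described above, also lie in this stretch.

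**Figure D5:**
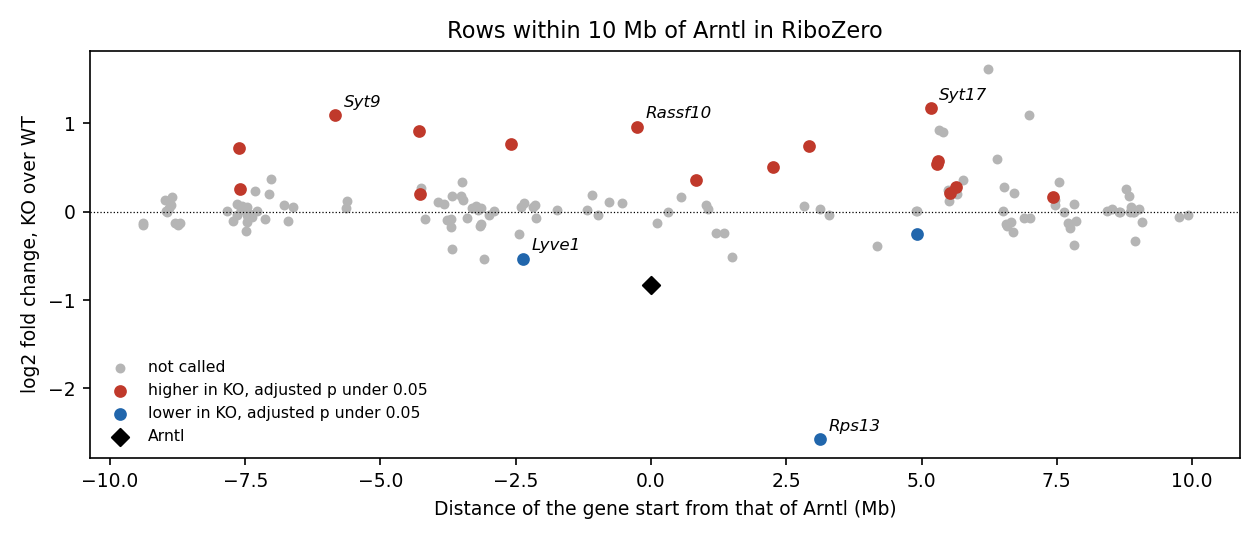
Log2 fold change of KO over WT for rows within 10 Mb of Arntl against the distance of their start from that of Arntl in Mb, with calls in red (higher) or blue (lower), other rows in grey and Arntl as a black diamond. Called rows lie on both sides of Arntl, 16 higher and 3 lower within 10 Mb.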

How the data were processed

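Lung RNA of 12 mice was sequenced after rRNA pull-down with a stranded total RNA kit and UMI adapters, per the labels' protocols. The authors deposited 1 table of estimated counts for 41687 rows, made with Salmon 1.4.0 and UMI-tools 1.1.1 on GRCm38 per the submitters' processing notes; the index, the annotation and the strand setting are not given in the sources used here. Of the deposited values, 12.81% were not whole, and all were rounded. Symbols were found for 37649 rows, and gene types, positions and 31-base words came from GENCODE M21. Library totals, given in the report, limit precision, which the SE of each fold change carries.

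KO and WT (6 libraries each) were compared with edgeR 4.0.16 (TMM, filterByExpr, quasi-likelihood test, Benjamini-Hochberg) in R 4.3.3, with genotype alone in the model. The knockout effect was compared with that in PolyA libraries by an interaction term. Those libraries are paired by mouse: deviations of the same mouse correlated at 0.533 to 0.781 over 14471 rows, and 12 of 12 matched their own mouse best. Class shares were compared by exact permutation tests in Python 3.11.15. Standard errors belong to fitted log2 fold changes, and edgeR p-values set a fitted difference against the variation among libraries. In the RiboZero comparison each library is a different mouse. The comparison with PolyA uses libraries of the same mice, which fits without the block treat as independent. The fits were tested on simulated counts.

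Members and lists were chosen with earlier results of these data known. Named are Arntl, the clock lists, the 12 highest and 12 lowest calls with a symbol, no overlap and an average log2 CPM of at least 0, up to 4 called members per list (or its most abundant member), and up to 10 noncoding calls. Some of these genes are counted in their lists and are not reported by name here. Alternatives were DESeq2 1.42.0, other size factors, filters and row sets, thinning, replicate blocks and leaving out each library. NoSelect libraries were not used here.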

Additional observations from a re-analysis of the deposited data

Results flagged for a closer look

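The 6 libraries of a genotype were searched for a single library far from the rest, in 272 groups of values, and 23 were found. Chance alone flags about 1 in 20 groups. The values below are CPM unless stated otherwise.

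WT2 stood apart in several clock-linked genes. It was the highest WT library for Nr1d1 at 29.7 (others 9.23 to 14.6), for Nr1d2 at 59.7 (others 27.0 to 34.9), for Cyp2s1 at 138.0 and for Ddx5 at 1248, and the lowest for Npas2 at 14.4 (others 20.5 to 23.8). WT1 was the lowest WT library for Per2 at 30.7 (others 56.8 to 71.8), for Nfil3 at 11.4, for Wee1 at 5.43, for Csnk1e at 81.3 and for Retnla at 13.8, and the highest for Gm14964 at 4.31. Among these genes, KO1 was the lowest KO library for Per2 at 98.5, for Nfil3 at 16.2 and for Wee1 at 4.46. With WT1 or WT2 left out, Nr1d1, Nr1d2, Npas2, Per2 and Retnla kept their direction and their call.

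KO6 was at 0.102 for Xist, as described in the report. It was also the highest KO library for Col12a1 at 49.5 (others 15.0 to 21), for Nampt at 88.4 and for Hspa8 at 1891, and the lowest for Btrc at 27.2. Further single libraries were KO4 for Per3 at 29.9 and for Clca1 at 294.5, WT6 for Clca1 at 38.2 and for Tcf7 at 25.3, and KO1 for Gsk3b at 135.3 and for Kcnf1 at 0.149. The snRNA share of counts was 0.0964% in WT5, below 0.174% to 0.212% in the other WT libraries. KO5 was also low, at 0.109% against 0.174% to 0.22% in the other KO libraries, though it was not flagged. The snoRNA share was likewise lowest in WT5 (0.0833%) among WT libraries and in KO5 (0.0885%) among KO libraries. The cause was not tested.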

How the results depend on the processing

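Every row called in the main comparison kept its sign in every alternative in which it was tested. The count of 579 (307 higher, 272 lower) became 976 with DESeq2 (489 and 487), of which 573 were shared. With the replicate number as a replicate block it became 372 (178 higher), of which 316 were shared. The numbers name different animals: same-numbered WT and KO libraries correlated at -0.133 to 0.309 in their deviations, and 1 of 6 matched its own number best. That correlation runs over 14471 rows and does not exclude a shared shift in single genes. WT1 and KO1 were each the lowest library of their genotype for Per1, Per2, Cry2 and Nfil3, but not for Arntl, Npas2 or Cry1. The cause of this was not tested. Leaving out 1 library gave 380 (without WT5) to 644 (without KO3) calls, 197 (without KO2) to 364 higher and 180 (without WT5) to 309 lower. The other filters, size factors, row sets and thinning gave 461 to 628. Clock calls numbered 8 to 11 when a library was left out. The comparison with PolyA gave 0 calls, 1 with the mouse as a replicate block and 11 with DESeq2.

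Of 68 named genes with a call, 0 changed direction in 1347 alternative fits, and 123 of these fits lost the call, most often for AU040972, Ccl21a, Ager, Col4a5, Gstm2, C1qa, Gm16201 and Mmp9. With the replicate block 16 named calls were lost, including all 6 long noncoding ones. Uncalled genes changed direction when 1 library was left out as follows, as the lowest and highest log2 fold change: Rorb (-0.13 to 0.24), Nfil3 (-0.064 to 0.17), Ciart (-0.13 to 0.0043), Cdkn1a (-0.18 to 0.14), Tsc22d3 (-0.16 to 0.037), Pdk4 (-0.10 to 0.25), Btrc (-0.078 to 0.0022), Fbxw11 (-0.038 to 0.017), Prkaa2 (-0.061 to 0.0019), Nampt (-0.11 to 0.014), Hsp90b1 (-0.090 to 0.015), Ddx5 (-0.019 to 0.0020), Myh6 (-0.60 to 0.14), Chil3 (-0.11 to 0.20), Tcf7 (-0.18 to 0.061), Hbb-bs (-0.40 to 0.24), Cfd (-0.45 to 0.080), Ckm (-0.54 to 0.097) and Cyp2e1 (-0.24 to 0.18, and -0.019 with the replicate block). The KO minus WT difference in share of counts, in percentage points, did so for other protein-coding (-0.54 to 0.059), snRNA (-0.015 to 0.016), snoRNA (-0.012 to 0.00035), Pol III and RNase RNA (-0.0049 to 0.50), histone (-0.0045 to 0.0019), ribosomal protein (-0.025 to 0.038) and pseudogene rows (-0.0063 to 0.0055). The cause was not tested. The median standard error was 0.81 for antigen receptor segments, 0.28 for snRNA and 0.26 for histone rows, against 0.079 for other protein-coding rows; the part of depth in this was not tested.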
